A study of Mus musculus with 6 samples.

Results

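Transforming growth factor β (TGF-β) and bone morphogenetic protein (BMP) signaling was followed through 39 genes in endothelial cells that express a wildtype or an acetylation mimetic Integrin-β1. The 39 were chosen by name as ligands, receptors, Smads, Id targets and antagonists of this pathway, out of the 23420 gene symbols in the table. All 39 were found, and 35 of them had enough reads to be tested, among 11608 tested genes. The embryonic mouse endothelial line eEnd2 was stably transfected with human Integrin-β1A that carries eGFP in its extracellular part, either as wildtype (β1-WT-GFP) or with Lys794 replaced by glutamine, the K794Q change that mimics an acetylated lysine (β1-K794Q-GFP). In both groups the mouse Integrin-β1 gene was left in place, expression was driven by a small human β-actin promoter fragment with a lysozyme matrix attachment region, and GFP positive cells were sorted as pools, not as single clones. A low and a high GFP population are described, and which of them gave each culture is not assigned in the labels. The 3 untreated confluent cultures of each group, lettered A, B and C, were sequenced as total RNA after ribosomal RNA depletion. No culture without a transfected integrin was analysed here, so both groups carry the human chimera.

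Ligands of this family bind a pair of type II and type I receptor kinases, and the type I receptor phosphorylates receptor-regulated Smads, which enter the nucleus with Smad4. TGF-β and activin signal mainly through Smad2 and Smad3, and BMP signals through Smad1, Smad5 and Smad9. Endothelial cells also carry the type I receptor Acvrl1 (ALK1) and the co-receptor Eng (endoglin), both of which are mutated in hereditary hemorrhagic telangiectasia. Inhibitory Smads, Smurf ubiquitin ligases and secreted antagonists limit the signal, and several of these are themselves targets of the pathway, as are the Id genes.

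Promoter sequence is shown for 3 of the genes that were high in one β1-WT-GFP culture (C), because the Smad-binding palindrome GTCTAGAC, which reads the same on both strands, can be looked for in it. RefSeq windows of 300 bases, reaching 250 bases before and 50 bases after the start of transcription in GRCm38.p6, existed for 27 of the 39 genes, with 30 windows in all. The palindrome was present in 1 of these 30 windows (3.33%) and in 0.213% of all 32851 windows of the same length. It lay in the window of Smad6, chr9:64022010-64022309 on the minus strand, with its first base 4 bases upstream of the start, and is printed in capitals. The windows of Bmp4, chr14:46390620-46390919 on the minus strand, and of Bmp6, chr13:38345466-38345765 on the plus strand, held none of the 3 motifs searched and are printed for comparison.
Smad6: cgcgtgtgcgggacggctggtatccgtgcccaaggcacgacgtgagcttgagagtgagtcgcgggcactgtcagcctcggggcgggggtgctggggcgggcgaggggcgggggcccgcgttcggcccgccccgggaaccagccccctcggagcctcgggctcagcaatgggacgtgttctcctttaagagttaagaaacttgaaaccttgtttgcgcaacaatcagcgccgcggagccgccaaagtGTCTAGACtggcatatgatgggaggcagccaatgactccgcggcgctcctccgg
Bmp4: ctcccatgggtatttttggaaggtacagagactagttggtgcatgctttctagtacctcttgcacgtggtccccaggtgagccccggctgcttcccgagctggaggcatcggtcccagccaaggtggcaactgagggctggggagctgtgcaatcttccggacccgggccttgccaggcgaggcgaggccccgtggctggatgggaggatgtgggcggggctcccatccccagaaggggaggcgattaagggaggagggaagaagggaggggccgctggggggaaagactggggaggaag
Bmp6: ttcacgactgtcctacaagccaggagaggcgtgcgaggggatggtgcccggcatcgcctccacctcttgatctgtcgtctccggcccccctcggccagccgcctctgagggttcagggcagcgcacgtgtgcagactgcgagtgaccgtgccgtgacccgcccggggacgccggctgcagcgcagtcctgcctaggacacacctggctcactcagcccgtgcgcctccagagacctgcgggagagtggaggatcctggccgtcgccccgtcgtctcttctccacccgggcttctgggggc
The GC-rich motif GGCGCC, which also reads the same on both strands, was found in 12 of the 30 windows (40.0%), against 11.9% of all windows, and the windows belonged to 11 genes, among them Id2, Tgfbr1, Bmpr2, Smad5 and Smurf2. The motif CAGACA, searched on both strands, was found in 4 windows (13.3%), of Tgfb2, Tgfbr1, Smurf1 and Smurf2, against 21.0% of all windows. A match describes the letters in the window, and binding was not measured.

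The labels describe different cultures of the sorted cells, and p-values measure only the spread among them. The totals ranged from 9589826 to 15287191 counts. Values are normalized counts (CPM, reads scaled to library size with TMM), and the upper limit set by a count of 0 (3 counts, for counting error alone) is 0.209 to 0.3 CPM. The endothelial label was checked with 14 markers, all of which were tested and none of which passed both thresholds, with summed levels of 8577 to 16692 CPM in β1-K794Q-GFP and 9583 to 11955 CPM in β1-WT-GFP. The summed smooth muscle and epithelial markers stayed at or below 3.69 CPM and 1.18 CPM in every culture. The summed leukocyte markers, mostly Cd68, were 31.8 to 104.1 CPM in β1-K794Q-GFP and 48.3 to 89.0 CPM in β1-WT-GFP, with Cd3e and Emr1 at 0 in every culture. Csf1r reached 10.7 CPM in β1-WT-GFP culture C. Of 10 mesenchymal markers, 2 were tested and 1, Prrx1, passed both thresholds, at no more than 0.0987 CPM in β1-K794Q-GFP and at 183, 194 and 56.5 CPM in β1-WT-GFP (A to C). The other 9 summed to 2.58 to 3.65 CPM in β1-K794Q-GFP and to 0.788, 1.20 and 27.7 CPM in β1-WT-GFP, high in culture C alone, and Dcn, Lum, Thy1 and Twist1 were at 0 in every culture. The part of these markers in the results was not tested. Bulk RNA does not tell fewer cells of a type from less RNA per cell. Likeness varied within a group: β1-WT-GFP A and B differed at least 2-fold in 0.198% of tested genes, whereas C differed from A in 21.3% and from B in 20.3%. In β1-K794Q-GFP the shares were 15.4% (A and B), 6.86% (A and C) and 20.3% (B and C).

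To ask whether the K794Q change shifts this pathway, the groups were compared with edgeR's quasi-likelihood test, and a gene was called at a fold change of at least 2 with an unadjusted p of at most 0.05. No member was called higher, and 1 of the 35 tested members, Tgfb3, was called lower. Over all tested genes 3.63% were called higher and 1.83% lower. An unadjusted p of at most 0.05 was reached by 2 members, Tgfb3 and Acvr1b. None passed a Benjamini-Hochberg adjusted p of 0.05, which 0.284% of all genes did, and the lowest adjusted p of a member was 0.402 (edgeR). DESeq2 also called 1 member, Tgfb3, and none at its adjusted p of 0.05, which 477 of 11608 tested genes reached. It gave no p-value for Bmp4, Fst and Smad6. The cultures of the groups did not overlap in 2 members, Bmpr1a above and Acvr1b below, against 16.6% of all tested genes. The fitted fold change was positive for 14 members and negative for 21, with a median log2 fold change (β1-K794Q-GFP over β1-WT-GFP) of -0.14, beside -0.015 over all tested genes.

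**Figure D1:**
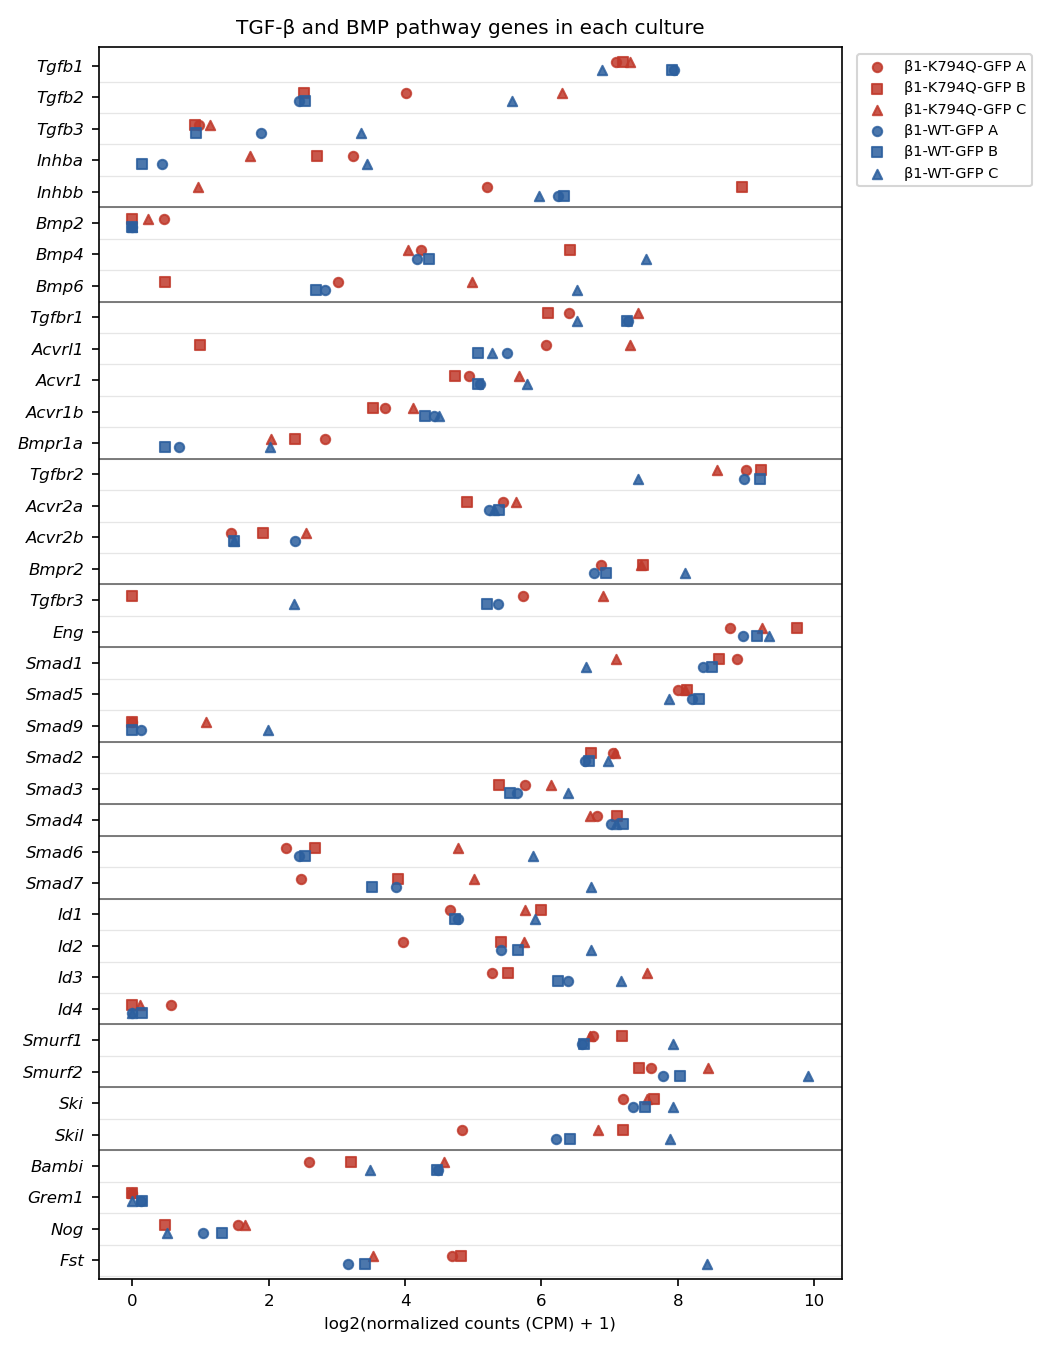
Level of each of the 39 pathway genes in each culture as log2(CPM + 1), ordered by role with dark lines between roles; red symbols are β1-K794Q-GFP and blue symbols β1-WT-GFP, and circles, squares and triangles are cultures A, B and C. The groups overlap in all tested genes except Bmpr1a and Acvr1b, and the blue triangle, β1-WT-GFP culture C, lies to the right of the other blue symbols in genes such as Fst, Bmp6 and Smad7.

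Of the TGF-β ligands, Tgfb1, the main TGF-β of endothelial cells, was the most abundant per length (79.9 CPM per kb of exon). It was at 135, 146 and 157 CPM in cultures A to C of β1-K794Q-GFP, and at 244 (A), 241 (B) and 118 (C) CPM in β1-WT-GFP. The means of 146 ± 11.1 and 201 ± 72.0 CPM (SD, n = 3) overlapped, and β1-WT-GFP culture C lay below all others. The log2 fold change was -0.46 ± 0.30 (SE), with an edgeR adjusted p of 0.684. Tgfb3, a ligand known from palate and lung development, was scarce, at 0.963, 0.888 and 1.20 CPM in β1-K794Q-GFP cultures A to C and at 2.71, 0.9 and 9.26 CPM in β1-WT-GFP. β1-WT-GFP culture B was at the level of the β1-K794Q-GFP cultures, and culture C was the highest of the 6. Tgfb3 fell by 2.08 on the log2 scale (SE 0.84, unadjusted p = 0.0460 and adjusted p = 0.455 by edgeR), while the exact two-sided permutation test over cultures gave p = 0.3, where 0.1 is the smallest possible. Of the 6 fits that each leave out 1 culture, only that without β1-WT-GFP culture B kept the call (-2.55), and the other 5 gave -2.32 to -0.82, the smallest without culture C of β1-WT-GFP.

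Tgfb2, the third TGF-β ligand, which needs betaglycan for efficient binding, was named with Inhbb, Bmp6, Tgfbr3 and Smad6 after the values were seen, for their wide range between cultures. It was at 15.2, 4.74 and 77.6 CPM in β1-K794Q-GFP cultures A to C and at 4.46, 4.8 and 46.7 CPM in β1-WT-GFP. Culture C was the high one in both groups, and the groups overlapped, with a log2 fold change of 0.80 ± 1.26 (SE, edgeR adjusted p = 0.9). Inhba encodes the βA subunit of activin A. It was at 8.47, 5.53 and 2.32 CPM in β1-K794Q-GFP and at 0.35, 0.1 and 9.89 CPM in β1-WT-GFP, where cultures A and B were near the limit of detection and C was the highest of all. Its log2 fold change was 0.63 ± 1.34 (SE, edgeR adjusted p = 0.926) and was 4.49, past both thresholds, without β1-WT-GFP culture C. Inhbb, the βB subunit of activin B, had the widest range, with 35.9, 493 and 0.946 CPM in β1-K794Q-GFP and 74.7, 79.9 and 61.6 CPM in β1-WT-GFP. The highest culture was 522 times the lowest, both of them β1-K794Q-GFP, while the β1-WT-GFP cultures lay close together. Its log2 fold change of 1.29 ± 1.58 (SE, edgeR adjusted p = 0.864) turned to -1.96 without β1-K794Q-GFP culture B.

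Of the BMP ligands, Bmp2 was not tested, with 4, 0 and 2 counts in β1-K794Q-GFP (A to C) and 0 counts in each β1-WT-GFP culture. Bmp4, which patterns early vessels and hematopoietic tissue, was at 17.8, 84.5 and 15.5 CPM in β1-K794Q-GFP and at 17.0, 19.4 and 185 CPM in β1-WT-GFP. One culture in each group was high, B in β1-K794Q-GFP and C in β1-WT-GFP, and the other 4 cultures lay between 15.5 and 19.4 CPM. Bmp6, which endothelial cells of the liver secrete to control hepcidin and iron, was at 7.12, 0.395 and 30.6 CPM in β1-K794Q-GFP and at 6.12, 5.5 and 90.6 CPM in β1-WT-GFP. Culture C was again the high one in both groups, and β1-K794Q-GFP culture B was close to the limit of detection. The log2 fold changes were -0.91 ± 1.11 for Bmp4 and -1.42 ± 1.54 for Bmp6 (SE, edgeR adjusted p = 0.865 and 0.839), and both turned positive without β1-WT-GFP culture C, to 1.12 and 1.15.

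Among the type I receptors, Tgfbr1 (ALK5), the kinase through which TGF-β reaches Smad2 and Smad3, was the most abundant per length (18.6 CPM per kb). It was at 84.0, 67.2 and 170.1 CPM in β1-K794Q-GFP cultures A to C and at 153, 152 and 90.7 CPM in β1-WT-GFP. Culture C lay above A and B in β1-K794Q-GFP and below them in β1-WT-GFP, and the log2 fold change was -0.30 ± 0.40 (SE, edgeR adjusted p = 0.879). Acvrl1, the endothelial receptor of BMP9 and BMP10, was at 66.4, 0.987 and 157 CPM in β1-K794Q-GFP and at 44.2, 32.5 and 37.7 CPM in β1-WT-GFP. Its transcript was nearly missing from β1-K794Q-GFP culture B and above all β1-WT-GFP cultures in A and C. The log2 fold change of 0.97 ± 1.25 (SE, edgeR adjusted p = 0.871) became 1.56, past both thresholds, without that culture. Acvr1b (ALK4), the activin receptor, was at 12, 10.5 and 16.4 CPM in β1-K794Q-GFP and at 20.4, 18.6 and 21.6 CPM in β1-WT-GFP, so that all β1-K794Q-GFP cultures lay below all β1-WT-GFP cultures. The log2 fold change was -0.64 ± 0.24 (SE), under the 2-fold threshold, with an unadjusted p of 0.0336 and an adjusted p of 0.402 (edgeR), and p = 0.1 in the exact permutation test, its smallest value. It lay between -0.84 and -0.50 in the fits without 1 culture.

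Bmpr1a (ALK3), a widely expressed BMP type I receptor, was at 6.07, 4.24 and 3.10 CPM in β1-K794Q-GFP cultures A to C and at 0.612, 0.4 and 3.06 CPM in β1-WT-GFP. The groups did not overlap, but culture C of both groups was at almost the same level, with 36 and 44 counts. The log2 fold change was 1.67 ± 0.76 (SE, unadjusted p = 0.0689 and adjusted p = 0.531 by edgeR, exact permutation p = 0.1), and 3.11, past both thresholds, without β1-WT-GFP culture C. Acvr1 (ALK2), a receptor for BMP6 and BMP7, ranged from 25.5 to 54.3 CPM over the 6 cultures and was highest in culture C of both groups.

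Tgfbr2, the type II receptor required for TGF-β signaling, was the most abundant type II receptor per length (55.9 CPM per kb). It was at 513, 594 and 383 CPM in β1-K794Q-GFP cultures A to C and at 499, 588 and 169 CPM in β1-WT-GFP. The levels of A and B were alike in both groups and culture C was the lowest of each, and the log2 fold change was 0.24 ± 0.46 (SE, edgeR adjusted p = 0.914). The other type II receptors, which serve activin and BMP ligands, did not pass the thresholds either: Acvr2a ranged from 28.9 to 48.7 CPM, Acvr2b from 1.73 to 4.82 CPM and Bmpr2 from 108 to 274 CPM. The 4 fitted log2 fold changes of the type II receptors lay between -0.10 and 0.26.

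Eng was the most abundant of the 39 genes per length, with 168 CPM per kb of exon, followed by Tgfb1, Id3 (74.2), Smurf2 (67.6), Smad1 (57.4) and Tgfbr2. It was at 435, 859 and 600 CPM in β1-K794Q-GFP cultures A to C and at 499, 570.1 and 647 CPM in β1-WT-GFP. The β1-WT-GFP cultures lay inside the range of the β1-K794Q-GFP cultures, and the log2 fold change was 0.14 ± 0.30 (SE, edgeR adjusted p = 0.924). Tgfbr3, betaglycan, which presents Tgfb2 to the receptors, was at 52.3, 0 and 118 CPM in β1-K794Q-GFP and at 40.2, 35.9 and 4.18 CPM in β1-WT-GFP. It was not detected in β1-K794Q-GFP culture B, which also had the lowest Acvrl1, and it was low in β1-WT-GFP culture C. Its log2 fold change of 1.09 ± 1.66 (SE, edgeR adjusted p = 0.894) was within the spread of the cultures.

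**Figure D2:**
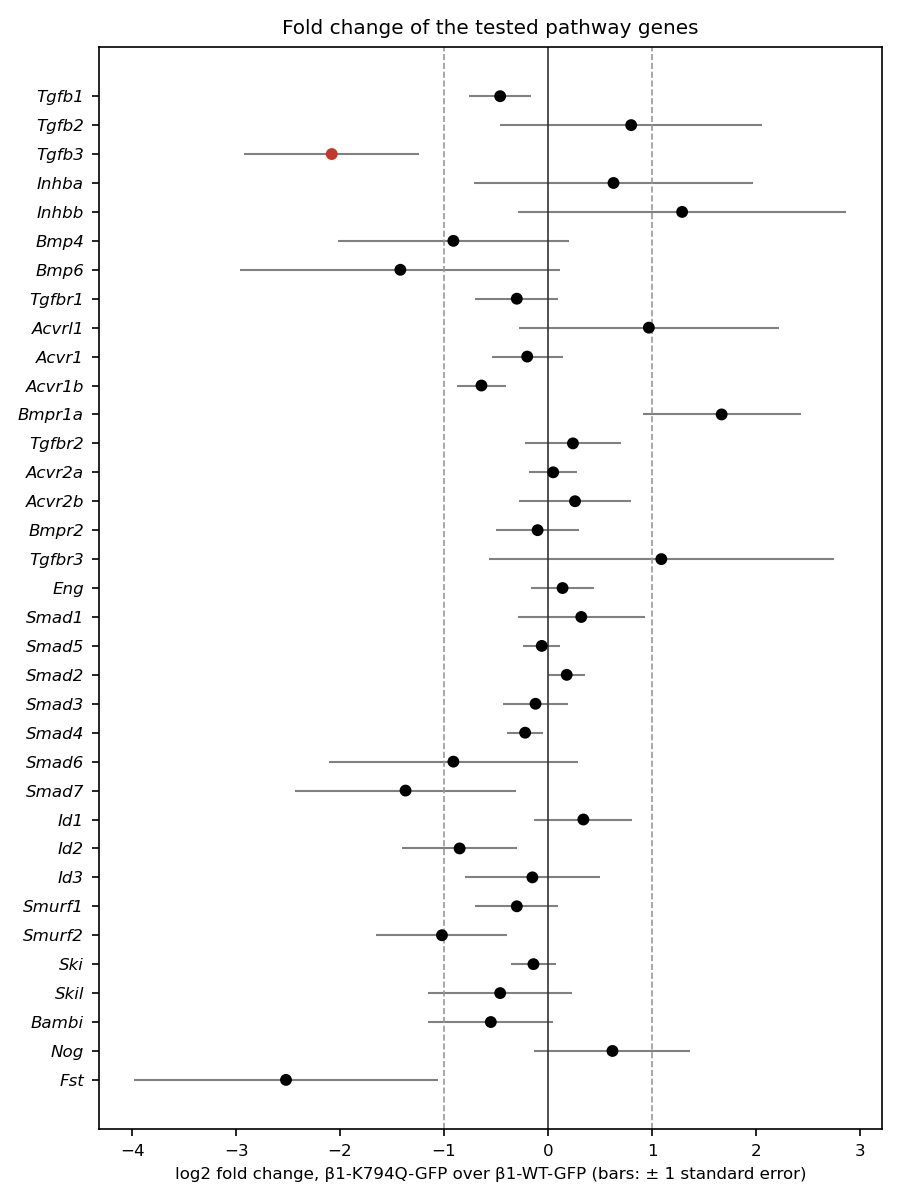
Fitted log2 fold change of the 35 tested pathway genes, β1-K794Q-GFP over β1-WT-GFP, with bars of ± 1 standard error and dashed lines at the 2-fold threshold. Red marks Tgfb3, which passed both thresholds at -2.08; the widest errors belong to genes that differ between cultures of one group, such as Tgfbr3 (1.66) and Inhbb (1.58).

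Of the Smads that carry the signal, Smad2, Smad4 and Smad5 were steady and Smad1 was not. Smad1, which carries the BMP signal and, through Acvrl1, part of the endothelial TGF-β signal, was at 466, 387 and 136 CPM in β1-K794Q-GFP cultures A to C and at 331, 361 and 99.6 CPM in β1-WT-GFP. Culture C was the low one in both groups, and the log2 fold change was 0.32 ± 0.61 (SE, edgeR adjusted p = 0.914). Smad5, its close relative, ranged only from 234 to 317 CPM, and Smad9 was not tested, with 13 counts in β1-K794Q-GFP culture C, 43 counts in β1-WT-GFP culture C and no more than 1 count elsewhere. Smad2 was at 131, 105 and 134 CPM in β1-K794Q-GFP and at 99.0, 102 and 126 CPM in β1-WT-GFP, with overlapping groups and a log2 fold change of 0.18 ± 0.18 (SE, edgeR adjusted p = 0.819). Smad3 ranged from 40.6 to 82.6 CPM. Smad4, the shared partner of both branches, was at 112, 137 and 104 CPM in β1-K794Q-GFP and at 129, 146 and 136 CPM in β1-WT-GFP. The groups overlapped in Smad4 through β1-K794Q-GFP culture B, and the log2 fold change was -0.22 ± 0.17 (SE, edgeR adjusted p = 0.746).

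The inhibitory Smads, which are induced by the pathway and block it at the receptor, differed more between cultures than between groups. Smad6, the BMP branch inhibitor whose promoter window is printed above, was at 3.75, 5.43 and 26.5 CPM in β1-K794Q-GFP cultures A to C and at 4.46, 4.8 and 57.9 CPM in β1-WT-GFP. Smad7, which inhibits both branches, was at 4.53, 13.9 and 31.4 CPM in β1-K794Q-GFP and at 13.6, 10.4 and 104.5 CPM in β1-WT-GFP. In both genes culture C was the highest of its group, and β1-WT-GFP culture C was the highest of all. The log2 fold changes of -0.91 ± 1.20 for Smad6 and -1.37 ± 1.06 for Smad7 (SE, edgeR adjusted p = 0.879 and 0.750) turned to 1.38 and 0.49 without β1-WT-GFP culture C.

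The Id genes encode helix-loop-helix proteins that lack a DNA-binding region and are direct targets of Smad1 and Smad5. Id1 was at 24.4, 62.6 and 53.4 CPM in β1-K794Q-GFP cultures A to C and at 26.3, 25.6 and 58.8 CPM in β1-WT-GFP. Id2 was at 14.7, 41.6 and 52.6 CPM in β1-K794Q-GFP and at 41.6, 49.4 and 105 CPM in β1-WT-GFP. Id3, the most abundant Id gene per length, was at 37.9, 44.5 and 187 CPM in β1-K794Q-GFP and at 82.5, 74.5 and 142 CPM in β1-WT-GFP. Culture A was the lowest of its group in all 3 genes in β1-K794Q-GFP, culture C was the highest of the β1-WT-GFP cultures in all 3, and the groups overlapped in each. The log2 fold changes were 0.34 ± 0.47, -0.85 ± 0.55 and -0.15 ± 0.65 (SE) for Id1, Id2 and Id3, with edgeR adjusted p-values of 0.883, 0.684 and 0.967. Without β1-K794Q-GFP culture C, Id3 was at -1.28 and passed both thresholds. Id4 was not tested, with at most 5 counts in a culture.

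Smurf1 and Smurf2 are ubiquitin ligases that mark Smads and type I receptors for degradation. Smurf1 ranged from 95.5 to 145 CPM in 5 cultures and was at 244 CPM in β1-WT-GFP culture C. Smurf2 was at 195, 172 and 349 CPM in β1-K794Q-GFP cultures A to C and at 219, 262 and 966 CPM in β1-WT-GFP, where culture C stood far above the rest. Its log2 fold change was -1.02 ± 0.63 (SE, edgeR adjusted p = 0.669) and 0.00 without that culture. Ski, a corepressor of Smad complexes, was at 146, 201 and 187 CPM in β1-K794Q-GFP and at 161, 183 and 244 CPM in β1-WT-GFP, with overlapping groups and a log2 fold change of -0.14 ± 0.22 (SE, edgeR adjusted p = 0.9). Its relative Skil (SnoN), a rapidly induced target of TGF-β that feeds back on it, had a wider range, from 27.5 CPM in β1-K794Q-GFP culture A to 236 CPM in β1-WT-GFP culture C.

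Of the antagonists, Fst, follistatin, which traps activins, was the most abundant per length (24.9 CPM per kb). It was at 24.8, 27.4 and 10.5 CPM in β1-K794Q-GFP cultures A to C and at 7.96, 9.6 and 342 CPM in β1-WT-GFP. All 3 β1-K794Q-GFP cultures lay above A and B of β1-WT-GFP and far below C. The log2 fold change of -2.52 ± 1.46 (SE, edgeR adjusted p = 0.645) became 1.26, past both thresholds, without that culture. Bambi, a pseudoreceptor with no kinase region, was at 5.01, 8.19 and 22.9 CPM in β1-K794Q-GFP and at 21.4, 21.2 and 10.2 CPM in β1-WT-GFP. Culture C was high in one group and low in the other, and the log2 fold change of -0.55 ± 0.60 (SE, edgeR adjusted p = 0.843) was -1.41, past both thresholds, without β1-K794Q-GFP culture C. Nog, the BMP trap noggin, did not exceed 2.15 CPM, and Grem1, gremlin, was not tested, with 1 count in A and 1 in B of β1-WT-GFP and 0 elsewhere.

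Many of these genes varied widely between cultures of one group. Over the 6 cultures of both groups, CPM + 1 ranged by at least 4-fold in 17 of 35 tested members (48.6%), against 15.7% of all tested genes. It ranged by under 2-fold in 7 of 35, against 52.3% of all tested genes. This range also holds differences between the groups. The 7 steady members were Acvr1b, Acvr2a, Eng, Smad2, Smad4, Smad5 and Ski. In β1-WT-GFP no member differed 2-fold between A and B, whereas 19 (54.3%) did in each pair with culture C. In β1-K794Q-GFP, 11 members (31.4%) differed 2-fold in the pair A and B, 17 (48.6%) in A and C, and 15 (42.9%) in B and C. These contrasts of single cultures have no replicates and are given as descriptions, with no test.

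**Figure D3:**
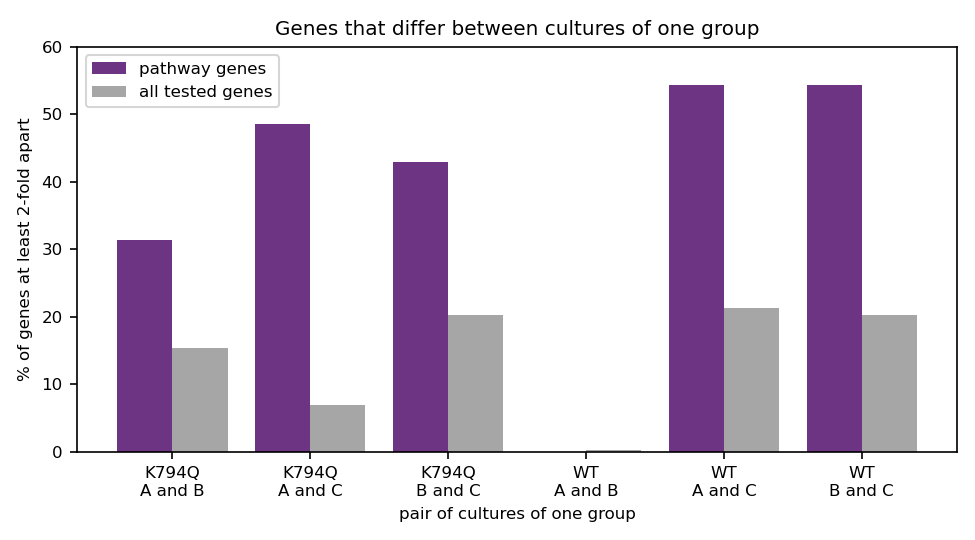
Percentage of the 35 tested pathway genes (purple) and of the 11608 tested genes (grey) that differ at least 2-fold in CPM + 1 between a pair of cultures of one group, for the 3 pairs of each group. The purple bar exceeds the grey one in every pair except β1-WT-GFP A and B, where it is 0; it reaches 54.3% in both pairs that hold β1-WT-GFP culture C.

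β1-WT-GFP culture C stood at least 2-fold above both other cultures of its group in 15 members (42.9%), against 9.5% of all tested genes. They included ligands (Tgfb2, Tgfb3, Inhba, Bmp4 and Bmp6), receptors (Bmpr1a and Bmpr2), genes whose products limit the pathway (Smad6, Smad7, Smurf1, Smurf2, Skil and Fst) and Id1 and Id2. It stood 2-fold below both in 4 members (11.4%), Tgfb1, Tgfbr2, Tgfbr3 and Smad1, against 8.19% of all genes. β1-K794Q-GFP culture C stood above in 9 members (25.7%), namely Tgfb2, Bmp6, Tgfbr1, Acvrl1, Tgfbr3, Smad6, Smad7, Id3 and Bambi, against 2.28% of all genes. It stood below in 3 (8.57%), Inhbb, Smad1 and Fst, against 1.67%. Tgfb2, Bmp6, Smad6 and Smad7 were high in culture C of both groups. β1-K794Q-GFP culture B stood above in 2 members (5.71%), Inhbb and Bmp4, against 4.54% of all genes, and below in 5 (14.3%), Tgfb2, Bmp6, Acvrl1, Tgfbr3 and Nog, against 6.84%. β1-K794Q-GFP culture A stood below in 4 members (11.4%), Smad7, Id1, Id2 and Skil, against 0.887% of all genes, and above in none, against 0.991%, and β1-WT-GFP cultures A and B stood apart in no member. The summed endothelial markers of β1-WT-GFP culture C, 9583 CPM, were the lowest of its group (10774 in A and 11955 in B). Of the 14, 4 stood at least 2-fold below both others (Erg, Cd34, Egfl7 and Sox18) and 0 stood 2-fold above. Tek, Tie1, Esam and Robo4 were also the lowest of the group in culture C, by less than 2-fold, and Pecam1 lay between A and B. Other endothelial markers were highest of the group in culture C, namely Cdh5 (2226.7 CPM against 1338.1 and 1564.5), Kdr (1153.8 against 776.9 and 797.9), Flt1, Emcn and Vwf. Some markers of other cells were higher in culture C than in A and B, among them Pdgfra (16.4 CPM against 0.525 and 0.7), Col1a1 (5.92 against 0.0875 and 0.1) and Csf1r (10.7 against 0.437 and 0.4). Prrx1, the mesenchymal marker with the highest level in each β1-WT-GFP culture, was lower in culture C (56.5 CPM against 183 and 194). The summed mesenchymal markers were also the lowest of the group in culture C (84.3 CPM against 184.2 and 194.7). The summed smooth muscle markers were 3.69 CPM, the highest of the 6 cultures, while Cd68 was at 37.2 CPM, below A and B (76.5 and 88.6). The part of these markers in the values of culture C was not tested. Whether the GFP population, the density or another property of the cultures has a part in these differences was not tested.

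**Figure D4:**
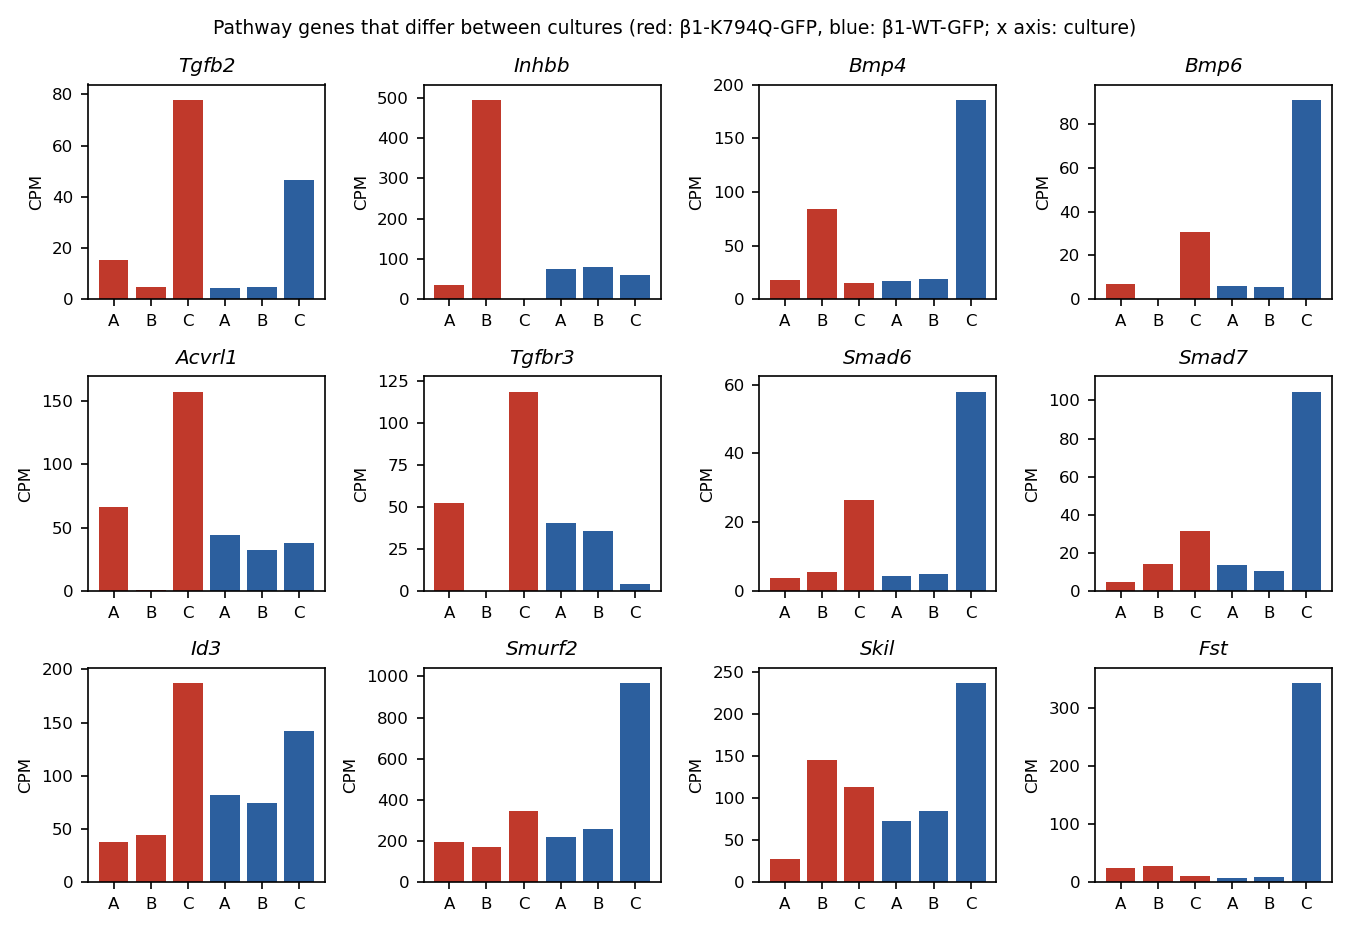
CPM of 12 pathway genes that differ between cultures, one bar per culture, with the 3 β1-K794Q-GFP cultures (A to C) in red and the 3 β1-WT-GFP cultures (A to C) in blue; each panel has its own axis from 0. β1-WT-GFP culture C has the tallest bar for Bmp4, Bmp6, Smad6, Smad7, Smurf2, Skil and Fst, and β1-K794Q-GFP culture B has almost none for Acvrl1, Tgfbr3 and Bmp6.

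The rest of the pathway was taken from a list of 116 further genes. That list was written with earlier results of these data known, so its shares are given as descriptions. Of the 116 genes, 63 were tested. Of these, 7 were called higher (11.1%, against 3.63% of all tested genes) and 5 lower (7.94%, against 1.83%), and the median log2 fold change was -0.16, beside -0.015 over all tested genes. Only Cdkn1a also passed an adjusted p of 0.05. Calls were made in the ligands (1 higher and 1 lower of 4 tested), the latency and activation genes (2 higher and 1 lower of 12), the extracellular antagonists (0 and 1 of 5), the intracellular regulators (3 and 1 of 21), the Smad2/3 targets (1 and 0 of 12) and the Smad1/5 targets (0 and 1 of 6), and none in the 3 further receptors tested. The antagonist Sost did not pass the filter and was not tested. Its counts in cultures A to C were 3, 0 and 7 in β1-K794Q-GFP and 580, 388 and 11 in β1-WT-GFP. It was named after its values were seen.

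Cdkn1a, the cell cycle inhibitor p21 and a target of TGF-β as well as of p53, was at 394, 306 and 306 CPM in β1-K794Q-GFP cultures A to C and at 31.8, 35.5 and 46.9 CPM in β1-WT-GFP. The groups were far apart, and it rose by 3.14 ± 0.23 on the log2 scale (SE, edgeR adjusted p = 0.0108). Gdf15, a distant ligand of the family and a stress-induced p53 target, had 24, 11 and 22 counts in β1-K794Q-GFP and 3, 0 and 1 counts in β1-WT-GFP. It was at least 6.86-fold higher in β1-K794Q-GFP when β1-WT-GFP was set to the limit of 3 counts per library (edgeR adjusted p = 0.131). Both were called in all 6 fits without 1 culture.

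Of the 12 tested latency and activation genes, Lrrc32, Emilin1 and Tll1 were called. Lrrc32 (GARP), which anchors latent TGF-β at the cell surface, was at 543, 715 and 114 CPM in β1-K794Q-GFP cultures A to C and at 60.4, 72.0 and 125 CPM in β1-WT-GFP. It rose by 2.41 ± 0.68 on the log2 scale (SE, edgeR adjusted p = 0.257), although culture C of both groups was at a like level. Emilin1, an elastic fiber glycoprotein that restrains maturation of proTGF-β, was at 152, 199 and 179 CPM against 94.0, 69.6 and 45.2 CPM, and rose by 1.34 ± 0.29 (SE, edgeR adjusted p = 0.144). Tll1, a protease of the BMP1 family that cleaves chordin and matrix proteins, was at 50.9, 52.5 and 34.9 CPM in β1-K794Q-GFP and at 340.0, 396 and 115 CPM in β1-WT-GFP. All β1-K794Q-GFP cultures lay below all β1-WT-GFP cultures, and it fell by 2.62 on the log2 scale (SE 0.48, edgeR adjusted p = 0.104). Bmper, a secreted modulator of BMP4 in endothelium, was at 0.674, 2.57 and 3.01 CPM against 7.44, 8.1 and 48.1 CPM, with a log2 fold change of -3.34 ± 0.95 (SE, edgeR adjusted p = 0.265) and of -1.87 without β1-WT-GFP culture C. Lrrc32, Emilin1, Tll1 and Bmper were each called in all 6 fits without 1 culture.

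Among the intracellular regulators, Usp15, which removes ubiquitin from receptors and Smads, was at 202, 139.9 and 159 CPM in β1-K794Q-GFP and at 82.4, 78.8 and 84.6 CPM in β1-WT-GFP. It rose by 1.03 ± 0.18 on the log2 scale (SE, edgeR adjusted p = 0.104). Lemd3, an inner nuclear membrane protein that binds receptor-regulated Smads, was at 65.1, 51.9 and 87.1 CPM against 33.9, 27.3 and 31.1 CPM and rose by 1.14 ± 0.23 (SE, edgeR adjusted p = 0.129). Both genes lie on chromosome 10, Usp15 at 123105006 to 123196995 and Lemd3 at 120923413 to 120979332 (GRCm38), and the 24 tested genes nearest to each had median log2 fold changes of 0.99 and 1.02. The part of this regional level in the 2 results was not tested. Tob1, an antiproliferative protein that binds Smads, was at 196, 93.5 and 156 CPM against 71.3, 79.5 and 22.6 CPM and rose by 1.36 ± 0.51 (SE, edgeR adjusted p = 0.405). Tgif2, a homeodomain corepressor of Smad2 and Smad3, was at 6.16, 0.888 and 11.2 CPM against 28.8, 28.3 and 16.8 CPM and fell by 2.01 (SE 0.78, edgeR adjusted p = 0.425). Bmp15, a ligand known from the ovary, stayed under 4 CPM and fell by 1.54 on the log2 scale (SE 0.60, edgeR adjusted p = 0.430). Stmn2, a microtubule regulator listed as a Smad1/5 target, was at 8.28, 0 and 7.31 CPM against 15.8, 21.5 and 273 CPM, with a log2 fold change of -4.31 ± 1.71 (SE, edgeR adjusted p = 0.444) and of -1.82 without β1-WT-GFP culture C.

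The call was lost without a single culture in 6 of these genes. Leaving out β1-K794Q-GFP culture A brought Usp15 to 0.87 on the log2 scale, and leaving out β1-WT-GFP culture B brought it just under the 2-fold threshold. Lemd3 was at 0.93, under that threshold, without β1-K794Q-GFP culture C. Tob1 lost its call without A (1.12) or C (1.32) of β1-K794Q-GFP and without A (1.54) or C (0.99) of β1-WT-GFP. Tgif2 lost it without β1-K794Q-GFP culture A (-2.01) and without A (-1.89) or B (-1.90) of β1-WT-GFP. Bmp15 kept it only without β1-K794Q-GFP culture B (-1.09) or C (-2.11), and lay between -1.62 and -1.47 in the fits that lost it. Stmn2 kept it only without A (-4.82) or B (-4.80) of β1-WT-GFP.

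**Figure D5:**
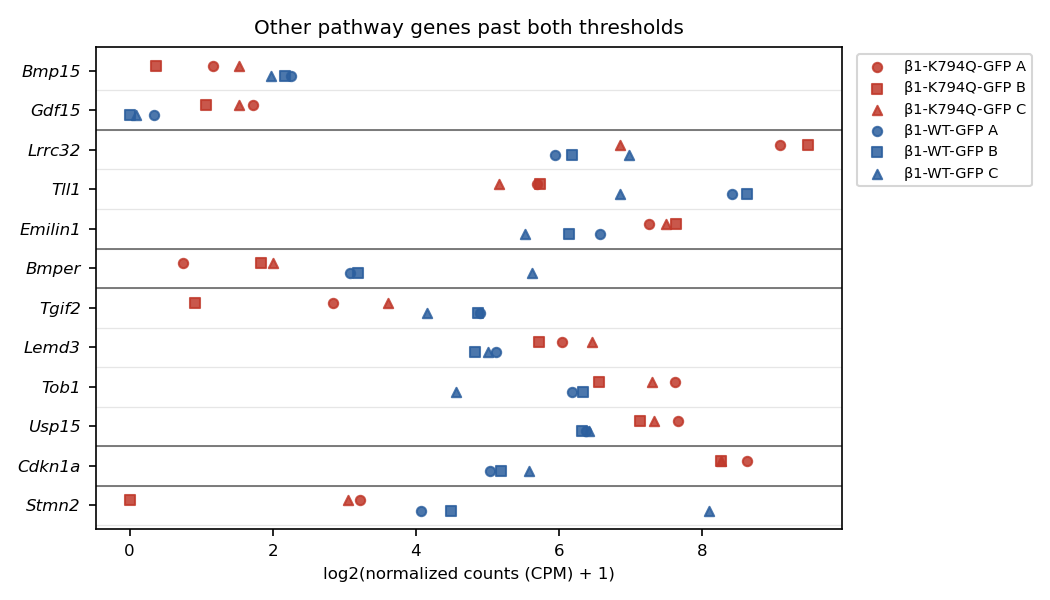
Level of the 12 further pathway genes past both thresholds in each culture as log2(CPM + 1); red symbols are β1-K794Q-GFP, blue symbols β1-WT-GFP, and circles, squares and triangles are cultures A, B and C. The groups are apart in 11 of the 12 genes and overlap in Lrrc32, and the widest gap is that of Cdkn1a.

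Further targets of Smad2 and Smad3 were also uneven between cultures, and 8 of the 12 tested (66.7%) stood at least 2-fold above both other β1-WT-GFP cultures in culture C, against 9.5% of all tested genes. The genes named here were chosen after their values were seen. Ctgf, a matricellular protein that Yap also induces, was at 1.64, 13.9 and 17.2 CPM in cultures A to C of β1-K794Q-GFP and at 0.787, 0.7 and 309 CPM in β1-WT-GFP. Fn1, fibronectin, was at 292, 1737 and 528 CPM against 174, 172 and 5833 CPM. Both had their highest value in β1-WT-GFP culture C, and neither passed both thresholds between the groups. Tgfbi, a secreted integrin ligand, showed another pattern, with 336, 0.493 and 380 CPM in β1-K794Q-GFP and 349.9, 390.2 and 205 CPM in β1-WT-GFP. It was nearly missing from β1-K794Q-GFP culture B, as were Acvrl1 and Tgfbr3.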

How the data were processed

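Total RNA of 6 eEnd2 cultures was sequenced after ribosomal RNA depletion. The deposited table holds raw read counts for each mouse gene symbol. The submitters' processing notes name bcl2fastq 2.20.0, STAR 2.7.4a, HTSeq 0.9.1, edgeR 3.38.4 and the build mm10; the gene annotation and the strand setting are not given in the sources used here, so that overlapping and antisense genes cannot be told apart. RNA sequencing was done 2 times on these samples, and the labels do not assign the table to one of them.

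The analysis ran in R 4.3.3 and edgeR 4.0.16: filterByExpr left 11608 of 23420 genes, TMM scaled the libraries, and a two-sided quasi-likelihood F-test compared the groups (common dispersion 0.186). Calls used the study's thresholds, 2-fold or more at an unadjusted p no higher than 0.05, with Benjamini-Hochberg adjustment over all tested genes beside it. Standard errors are the log2 fold change divided by the square root of F. Exact permutation tests were two-sided, with 0.1 as the smallest p. Totals of 9589826 to 15287191 counts set the precision, and limits from 3 counts cover counting error only. Samples were grouped by the labels, and no pair of cultures was identical or within sampling noise (chi-square per degree of freedom of at least 10.2 over genes with 20 or more counts).

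The 39 members and the other lists were chosen with earlier results of these data known. Values in every culture are given for members past both thresholds, also in a fit without 1 culture, members with groups apart and a fold of at least 1.5, the highest member per kb of exon in each role, and Id1 to Id3; further pathway genes are named where past both thresholds. Levels apart between cultures are on log2(CPM + 1). Exon lengths and positions came from GENCODE M21 (GRCm38) and promoter windows from RefSeq (GRCm38.p6). Same-lettered cultures were not paired in the main fit, as the labels do not give a pairing. Correlations of their deviations over genes were 0.0947, 0.0548 and 0.0952. Alternatives were no filter, at least 10 counts in every culture, RLE, DESeq2 1.42.0, the earlier quasi-likelihood method, a replicate block and leaving out each culture; leaving out β1-WT-GFP C and β1-K794Q-GFP B together was an alternative chosen after seeing the data. The test was checked on simulated counts with the same dispersion (0.186) for every gene and no outlying culture. That check does not cover cultures as uneven as those seen here. Python 3.11.15, pandas 2.3.3, numpy 2.4.6 and matplotlib 3.10.9 made tables and figures.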

Additional observations from a re-analysis of the deposited data

How the results depend on the processing

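The settings were compared for 26 members and for the counts of calls. RLE, DESeq2 and the earlier quasi-likelihood method reversed no fold change and each called 1 member, Tgfb3. Without a filter 1009 genes were called in place of 633. With at least 10 counts in every culture, 29 members were tested and no member was called (0 lower). Tgfb3, with 9 counts in K794Q B and 9 in WT B, was removed by that filter and not tested. The same setting called 7 further pathway genes in place of 12. The labels do not say whether cultures of the same letter were handled together. Same-lettered cultures correlated at 0.0947 (A), 0.0548 (B) and 0.0952 (C) in their deviations from the group mean. Correlations between different letters lay between -0.152 and -0.0106, apart from K794Q A with WT B (0.0954). With the letter as a replicate block, 598 genes and 0 members were called, and the log2 fold change was -0.17 for Acvrl1, 0.05 for Fst and -1.17 for Inhbb. Leaving out WT C and K794Q B together was an alternative chosen after seeing the data. It called 1663 of 11721 tested genes, 1177 of them higher, and 23 further pathway genes. Of 35 tested members it called 6, all 6 higher and 0 lower (Acvrl1, Bmp6, Bmpr1a, Inhba, Tgfb2 and Tgfbr3). In that fit the log2 fold change was 1.72 for Bmp6, -0.03 for Eng, 1.02 for Fst, 0.53 for Id3 and -2.06 for Inhbb. It was -0.18 for Smad1, 1.73 for Smad6, 0.60 for Smad7, 0.19 for Smurf2 and -0.26 for Tgfbr2. Leaving out each culture in turn gave 529 (without WT B) to 1030 (without WT C) called genes and 8 to 15 further pathway genes. Members called higher numbered 0 to 3, and members called lower 0 to 2. Without WT C, 3 of 35 tested members were higher (Bmpr1a, Fst and Inhba), beside 728 of 11844 genes. Without K794Q B, 1 of 36 was higher (Acvrl1), beside 629 of 11853 genes. Without K794Q C, 2 of 35 were lower (Bambi and Id3), beside 273 of 11782 genes. Over the fits without 1 culture the members' median log2 fold change lay between -0.27 and 0.25. The log2 fold change ranged from -0.18 to 1.56 for Acvrl1, -2.16 to 1.12 for Bmp4, -3.18 to 1.15 for Bmp6, -0.14 to 0.35 for Eng, -3.07 to 1.26 for Fst, -1.28 to 0.21 for Id3, -1.96 to 1.88 for Inhbb, -0.27 to 0.06 for Ski, -0.06 to 0.70 for Smad1, -2.29 to 1.38 for Smad6, -2.22 to 0.49 for Smad7, -1.39 to 0.00 for Smurf2, -0.91 to 2.83 for Tgfb2, -0.12 to 0.57 for Tgfbr2 and -0.03 to 1.69 for Tgfbr3. The cause of these differences was not tested. At these depths a gene under about 0.3 CPM is not told from 0.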
